A study of Mus musculus with 22 samples.

Results

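The LPS response of chemically exposed, cannabidiol-treated brains was read from 8 of the 22 whole-brain RNA-seq libraries of the study: 4 libraries of group GWCBD30LPS were set against 4 of group GWCBD30, over all genes. Mice of both groups were male C57BL/6J that had been given pyridostigmine bromide (0.7 mg/kg) and permethrin (200 mg/kg) by daily injection for 10 days from the age of 10 weeks, and were then kept until 17.5 months. Both groups then received cannabidiol (CBD, 30 mg/kg, in a detergent and PBS vehicle) every day for 28 days and every 2 days for 2 further weeks. GWCBD30LPS mice were then injected once with LPS of Escherichia coli at 0.33 mg/kg and GWCBD30 mice with PBS, and brains were taken 24 hours later. The exposure and the CBD were thus shared by both sides of the comparison, which differed by label in LPS only.

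Set beside it were the same LPS comparison in exposed mice that had received the vehicle in place of CBD (GWVehLPS against GWVeh, 4 libraries each) and in control mice that had received neither chemicals nor CBD (CtrlVehLPS against CtrlVeh, 3 libraries each). The 3 comparisons share no library. All mice were male, LPS was sampled at 1 dose and 1 time, and no unexposed CBD group was analysed here. The titles number the mice of each group, while litter, cage and extraction batch are not given, so p-values measure the spread between these libraries. A library holds RNA of the whole brain, in which fewer cells of a type and less RNA per cell cannot be told apart.

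LPS is a lipid of the outer membrane of Gram-negative bacteria that is bound by CD14 and Toll-like receptor 4 on myeloid and endothelial cells, which activate NF-kB and interferon signalling. An injection into the abdomen acts on the brain largely through the vessel wall and through cytokines in blood: endothelial cells display adhesion molecules, microglia raise complement and Fc receptors, and the adrenal gland releases glucocorticoids that switch on a gene set of their own. CBD is a non-intoxicating constituent of cannabis that acts on several receptors, ion channels and enzymes.

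Levels are given as CPM, counts per 1000000 of a library's scaled total, and changes as log2 fold change of LPS over PBS with its standard error, and a gene is called where edgeR's quasi-likelihood test with Benjamini-Hochberg adjustment over all 20026 genes tested gave an adjusted p under 0.05. Totals ran from 18167089 to 31150515 counts in GWCBD30LPS and from 19484144 to 23425983 in GWCBD30, and the lowest of all 22 libraries had 17152595. A floor of 3 counts, below which a level was treated as not detectable, came to between 0.0975 and 0.167 CPM in the 8 CBD libraries. Mitochondrial transcripts took between 3.83% and 4.84% of their counts. Markers of neurons, astrocytes, myelin and microglia were all present, as the labelled tissue requires. CtrlVehLPS replicate 1 stood apart from the other libraries: it held 0 counts of the cerebellar gene Gabra6, where the others held 1436 to 3275, its cerebellar markers summed to 953.8 CPM, and its pancreatic markers to 119.6 CPM, against at most 6.98 CPM elsewhere. The mean log2 CPM of olfactory bulb markers was 3.51 to 4.23 in CtrlVehLPS, against 2.30 to 2.42 in CtrlVeh, so LPS and dissected region cannot be told apart in the control arm.

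A single gene was called in the CBD arm, and it was higher with LPS: Tsc22d3, which encodes the glucocorticoid-induced leucine zipper (GILZ), a mediator of the anti-inflammatory action of glucocorticoids. That is 0.00499% of the genes tested, against 188 genes (0.939%) in the exposed vehicle arm and 99 (0.494%) in the control arm. Of the 99 control calls, 41 remained among the 62 made without CtrlVehLPS replicate 1, and 14 among the 20 made with the olfactory bulb score as covariate. No gene was called lower in the CBD arm, where 790 genes (3.94%) were lower and 857 (4.28%) higher at an unadjusted p under 0.05. At that p 969 were lower and 1112 higher in the vehicle arm, and 1078 lower and 1374 higher in the control arm. Chance gives about 1001 per arm over both directions. The arms thus differed less by this measure than by calls. The CBD-arm count of calls depended on the tool, with 38 genes (0.19%) called by DESeq2, of which 6 were lower, and 87 (0.434%) by limma voom, of which 29 were lower. Over all genes tested the median log2 fold change in the CBD arm was 0.00 and 49% of values were above 0.

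Tsc22d3 lies on X:140539528-140600659 (GRCm38, minus strand). It stood at 66.2, 73.8, 62.6 and 72.9 CPM in the 4 GWCBD30LPS libraries, against 51.5, 55.3, 50.6 and 53.7 CPM in the 4 GWCBD30 libraries. The lowest GWCBD30LPS library was above the highest GWCBD30 library. The means were 68.9 ± 5.38 CPM and 52.8 ± 2.13 CPM (SD, n = 4 each), a rise of 0.38 ± 0.06 on the log2 scale (1.3-fold, 95% interval 0.25 to 0.51, edgeR adjusted p = 0.0167). The vehicle arm had 71.7 ± 4.92 CPM in GWVehLPS and 56.8 ± 2.61 CPM in GWVeh (log2 0.34, edgeR adjusted p = 0.00225). Control brains had 79.1 ± 1.18 CPM in CtrlVehLPS and 65.5 ± 2.46 CPM in CtrlVeh (SD, n = 3 each), with a log2 change of 0.27 that missed the threshold (edgeR adjusted p = 0.0797). The CBD and vehicle responses of Tsc22d3 differed by 0.05 ± 0.09 on the log2 scale (95% interval -0.14 to 0.23, edgeR adjusted p = 0.977). The call in the CBD arm was lost without GWCBD30LPS replicate 2 or 4, or without GWCBD30 replicate 1 or 3, and the adjusted p reached 0.195. The log2 change stayed between 0.35 and 0.43 over the 19 alternatives. No gene was called without GWCBD30LPS replicate 2 or 4 or GWCBD30 replicate 3, and 13 were called without CtrlVehLPS replicate 1, the library that stood apart, which lies outside the arm and shares in the estimate of spread.

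The start region of Tsc22d3 is shown because it belongs to the 1 gene called. RefSeq (GRCm38.p6) gives 3 start windows for it, each of 300 bases from 250 before to 50 after a transcript start. None held the glucocorticoid response element, searched as AGNACA and TGTNCT 3 bases apart, which 0.0639% of 32851 promoter windows held on either strand. With so rare a match, absence from 3 windows is uninformative. Sequence more than 250 bases before a start was not searched. The window at chrX:140548522-140548821 (minus strand) held a STAT-type GAS motif, TTCNNNGAA, 207 bases before the start, in capitals, as did 8.3% of all windows.
Tsc22d3: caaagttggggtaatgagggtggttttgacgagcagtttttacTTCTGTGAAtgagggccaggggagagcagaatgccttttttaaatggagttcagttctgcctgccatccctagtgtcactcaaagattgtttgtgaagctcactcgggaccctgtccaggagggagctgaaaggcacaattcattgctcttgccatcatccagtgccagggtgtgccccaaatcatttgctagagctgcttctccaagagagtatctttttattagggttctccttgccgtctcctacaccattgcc

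Tsc22d3 was the only gene of the glucocorticoid-responsive list to be called. Of the 24 members of that list, all tested, 20 had a positive change and 5 were higher at an unadjusted p under 0.05. Of all genes tested, 4.28% were higher at that p. The list's median was 0.14 in the CBD arm, beside 0.32 in the vehicle arm (8 called higher) and 0.31 in the control arm (2 called higher). Fam107a, an actin-associated stress gene of astrocytes and neurons, had 347, 393, 288 and 329 CPM in GWCBD30LPS, against 257, 281, 279.7 and 257 CPM in GWCBD30. All LPS libraries were above all PBS libraries for it (log2 0.34 ± 0.10, edgeR adjusted p = 0.394). The same gene rose by 0.78 on the log2 scale in the vehicle arm (edgeR adjusted p = 0.000116). Gpd1, the cytosolic glycerol-3-phosphate dehydrogenase, had 94.1, 90.4, 91.1 and 94.1 CPM in GWCBD30LPS, against 75.9, 83.5, 83.3 and 75.5 CPM in GWCBD30, again without overlap (log2 0.22, edgeR adjusted p = 0.432).

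Other classic targets of the glucocorticoid receptor did not pass the test and overlapped between groups. Fkbp5, the co-chaperone that limits the receptor's sensitivity, averaged 26.8 ± 2.6 CPM in GWCBD30LPS and 23.5 ± 2.17 CPM in GWCBD30 (log2 0.19, edgeR adjusted p = 0.611). The kinase gene Sgk1 averaged 81.3 ± 24.2 CPM in GWCBD30LPS, with replicate 4 highest at 116 CPM, and 62.6 ± 5.76 CPM in GWCBD30. Plin4, which coats lipid droplets, averaged 4.74 ± 0.761 CPM in GWCBD30LPS and 3.77 ± 0.769 CPM in GWCBD30 (log2 0.33, edgeR adjusted p = 0.845). In the vehicle arm Plin4 rose to 13.8 ± 7.81 CPM in GWVehLPS, against 3.54 ± 0.991 CPM in GWVeh (log2 1.97, edgeR adjusted p = 0.00412), and the difference between those 2 responses was -1.64 ± 0.48 (edgeR adjusted p = 0.61). Sult1a1, a sulfotransferase, had a CBD-arm change of 0.25 (edgeR adjusted p = 0.79) beside a vehicle-arm rise of 1.27 (edgeR adjusted p = 0.000702).

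At the looser threshold of an adjusted p under 0.1, 21 genes (0.105%) came up in the CBD arm, 18 higher and 3 lower, and none of the 21 overlapped between groups. They were chosen by p in this same comparison, so their separation adds nothing to it. Of all genes tested, 3.39% were higher and 2.85% lower without overlap. Of the 21 genes other than Tsc22d3, 19 are named here, after their values were seen. Higher with LPS were Sparcl1 (hevin, a secreted protein that promotes synapse formation), Slc6a11 (the GABA transporter GAT-3), Plpp3 (a phospholipid phosphatase), Gstm1 (a glutathione transferase), Kcnj16 (a potassium channel) and Myorg (a glycosidase). Also higher were Cpt1a, which admits fatty acids to mitochondria, the secretory granule gene Scg3, the AMPA receptor auxiliary subunit Cacng4, Tns3, Arhgef26, the ferroxidase Heph, the homeobox gene Irx2, Lsm12, the mitochondrial tRNA mt-Tc and the complement gene C1qb. The 3 lower ones were Gm9522, Nek1 and Mad2l1.

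Sparcl1 (5:104079111-104113733, minus strand) had 1987, 2013, 2098 and 1969 CPM in GWCBD30LPS, against 1663, 1653, 1603 and 1549 CPM in GWCBD30. The lowest GWCBD30LPS library was well above the highest GWCBD30 library. The log2 change was 0.32 ± 0.06 (1.25-fold, 95% interval 0.20 to 0.44, edgeR adjusted p = 0.0538). Vehicle-arm means were 2037 ± 167 CPM in GWVehLPS and 1766 ± 148 CPM in GWVeh (log2 0.21, edgeR adjusted p = 0.104).

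Slc6a11 had 384, 389.5, 464 and 414 CPM in GWCBD30LPS, against 355, 320.3, 319 and 280.0 CPM in GWCBD30, with replicate 3 highest among the LPS libraries (log2 0.37 ± 0.08, edgeR adjusted p = 0.0819). Gstm1 had 249, 255, 237 and 223 CPM in GWCBD30LPS, against 174, 194, 176 and 164 CPM in GWCBD30 (log2 0.44 ± 0.09, edgeR adjusted p = 0.0895), and in the vehicle arm it was called higher at 0.43 (edgeR adjusted p = 0.0148). The changes of Plpp3, Myorg and Kcnj16 ran from 0.25 for Plpp3 to 0.41 for Kcnj16. Scg3 showed the least spread, with 248, 250.1, 244 and 247 CPM in GWCBD30LPS, against 209.5, 204, 199 and 206 CPM in GWCBD30 (log2 0.27, edgeR adjusted p = 0.0748). Heph had 12.6, 12.9, 11.2 and 9.61 CPM in GWCBD30LPS, against 7.79, 7.17, 5.64 and 9.36 CPM in GWCBD30 (log2 0.64, edgeR adjusted p = 0.0938), and it rose by 0.86 in the vehicle arm (edgeR adjusted p = 0.000355).

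On the lower side, Mad2l1, a spindle checkpoint gene, had 5.92, 6.11, 7.11 and 5.28 CPM in GWCBD30LPS, against 9.14, 9.71, 8.03 and 8.91 CPM in GWCBD30 (log2 -0.55 ± 0.12, edgeR adjusted p = 0.0938). Nek1, a kinase of cilia and DNA repair, averaged 42.6 ± 2.52 CPM in GWCBD30LPS and 52.9 ± 4.2 CPM in GWCBD30 (log2 -0.31, edgeR adjusted p = 0.0938). Gm9522 (15:39180511-39181436, plus strand) is a processed pseudogene, whose reads can be split with near-identical copies. It had 1 count in all over the 4 GWCBD30LPS libraries and 52 over the 4 GWCBD30 libraries, a ratio of 0.0175 (95% counting interval 0.000435 to 0.102). In the vehicle arm it had 34 counts in GWVehLPS and 21 in GWVeh. Of the 21 genes, 19 had the same sign in the vehicle arm and 18 in the control arm, where 5 and 4 of them were called. The median of the 18 higher genes was 0.37 in the CBD arm, in which they were chosen, and 0.23 in each of the other arms (0.28 in the control arm without CtrlVehLPS replicate 1). DESeq2 called 20 of the 21 and gave no adjusted p for the other one, voom called all 21, and the fit on the 8 CBD libraries alone called 9. All of these fits used the libraries in which the 21 were chosen.

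**Figure D1:**
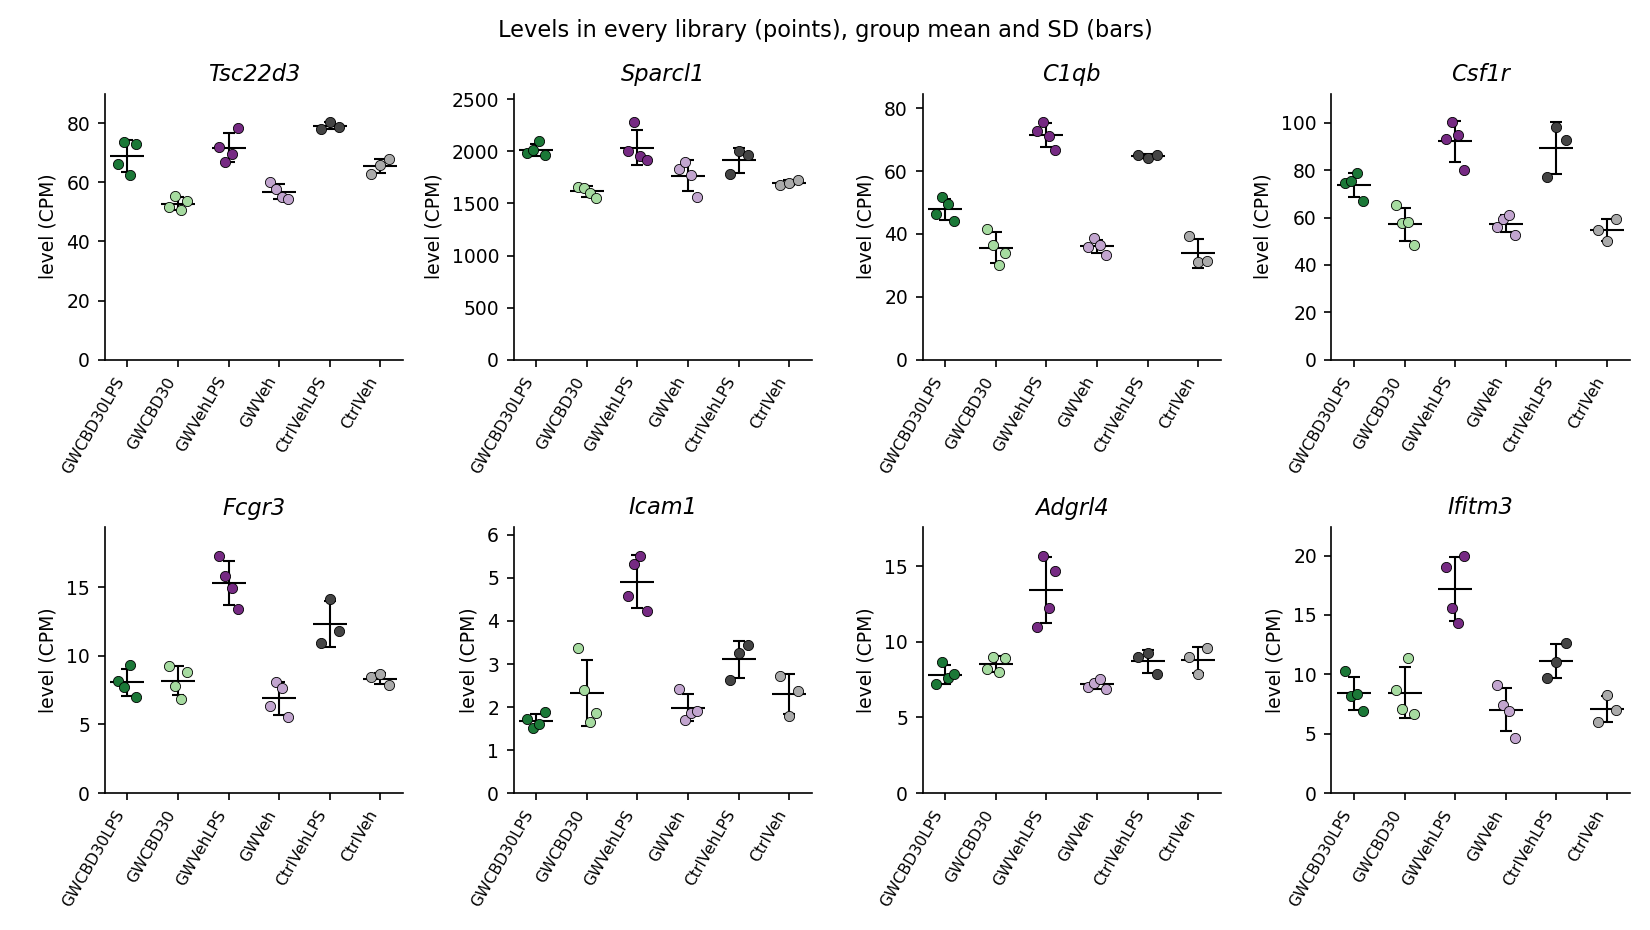
Levels in CPM (vertical axis, from 0) of 8 genes in each of the 22 libraries (points), by group, with the group mean and SD (bars). Tsc22d3 and Sparcl1 were higher in all 4 GWCBD30LPS libraries than in any GWCBD30 library, while Fcgr3, Icam1, Adgrl4 and Ifitm3 overlapped between these 2 groups and stood apart between GWVehLPS and GWVeh.

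Microglial genes had small positive changes with LPS in the CBD arm, none of which passed the threshold. All 24 homeostatic microglia genes of the list had a positive change, with a median of 0.29 beside 0.00 for all genes. Of these, 10 were higher at an unadjusted p under 0.05 and 10 did not overlap between groups. Of all genes tested, 4.28% were higher at that p and 3.39% were higher without overlap. None of the 24 was called by edgeR, whereas DESeq2 and voom called 3 each. The median was 0.57 in the vehicle arm (16 called) and 0.63 in the control arm (14 called).

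Csf1r, the receptor on which microglial survival depends, had 74.4, 75.6, 78.8 and 66.8 CPM in GWCBD30LPS, against 65.3, 57.6, 57.9 and 48.2 CPM in GWCBD30. The groups did not overlap, though the lowest LPS library and the highest PBS library were close (log2 0.37 ± 0.08, edgeR adjusted p = 0.118). Csf1r rose in the vehicle arm by 0.69 (edgeR adjusted p = 7.89e-06), and the difference between the arms was -0.32 ± 0.12 (95% interval -0.56 to -0.07, edgeR adjusted p = 0.732). Ctss, the lysosomal protease cathepsin S, had 45.5, 53.0, 51.4 and 42.5 CPM in GWCBD30LPS, against 38.5, 35.4, 33.0 and 39.3 CPM in GWCBD30 (log2 0.40 ± 0.09, edgeR adjusted p = 0.124). Its rise in the vehicle arm was 0.99 (edgeR adjusted p = 3.36e-08), and the difference was -0.60 ± 0.13 (edgeR adjusted p = 0.0806).

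Defining genes of microglia did not all follow. Tmem119 averaged 19.5 ± 1.44 CPM in GWCBD30LPS and 17.5 ± 0.915 CPM in GWCBD30 (log2 0.16, edgeR adjusted p = 0.623), and the purine receptor gene P2ry12 averaged 16.5 ± 3.58 CPM in GWCBD30LPS and 15.5 ± 1.68 CPM in GWCBD30 (log2 0.09, edgeR adjusted p = 0.913). The sign for P2ry12 turned without GWCBD30LPS replicate 2, the highest of its group at 21.7 CPM.

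Lysosomal genes had the same direction, and the list shares members, Ctss among them, with the microglial one. Of 22 lysosome and cathepsin genes, 17 had a positive change, with a median of 0.13. At an unadjusted p under 0.05, 9 were higher (4.28% of all genes), and 7 were higher without overlap (3.39% of all genes). Of 28 disease-associated microglia genes, 23 were positive and 7 were higher at that unadjusted p, with a median of 0.13 beside 0.25 in the vehicle arm and 0.13 in the control arm. Fth1, the heavy chain of the iron store ferritin, had 1926, 1872, 2038 and 1745 CPM in GWCBD30LPS, against 1623, 1682, 1419 and 1463 CPM in GWCBD30 (log2 0.29, edgeR adjusted p = 0.416). Ctsz had 43.6, 39.0, 43.5 and 38.4 CPM in GWCBD30LPS, against 37.2, 36.7, 37.5 and 31.2 CPM in GWCBD30 (log2 0.21, edgeR adjusted p = 0.497). For both genes every GWCBD30LPS library was above every GWCBD30 library. Tyrobp, the adaptor of several microglial receptors, averaged 7.78 ± 1.13 CPM in GWCBD30LPS and 6.26 ± 0.57 CPM in GWCBD30, and its libraries overlapped.

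The complement list includes C1q, the recognition molecule of the classical pathway, whose 3 chains are made by microglia. Of the 23 complement genes counted, 20 passed the filter on low counts, and 13 of them were positive. At an unadjusted p under 0.05, 5 of the 20 were higher (4.28% of all genes). Without overlap 1 was higher, where 3.39% of all genes were. The list's median was 0.17 beside 0.58 in the vehicle arm. The control-arm median of the list was 0.23 (0.195 without CtrlVehLPS replicate 1). C1qb (4:136880129-136886187, minus strand) had 46.2, 51.7, 49.4 and 44.0 CPM in GWCBD30LPS, against 41.7, 36.6, 30.2 and 33.8 CPM in GWCBD30. Its groups did not overlap, and the log2 change was 0.43 ± 0.08 (1.34-fold, 95% interval 0.26 to 0.59, edgeR adjusted p = 0.058). Without GWCBD30 replicate 1 it was the 1 gene called in the arm. Vehicle-arm libraries of C1qb had 72.6, 75.6, 71.0 and 66.7 CPM in GWVehLPS, against 35.7, 38.6, 36.5 and 33.3 CPM in GWVeh (log2 0.99, edgeR adjusted p = 2.32e-09). The PBS groups of both arms stood at like levels, while every GWVehLPS library was above every GWCBD30LPS library. The difference between the responses was -0.56 ± 0.12 (95% interval -0.80 to -0.33), just short of the threshold (edgeR adjusted p = 0.0513).

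C1qa (4:136895917-136898803, minus strand) had 43.0, 46.5, 45.1 and 39.6 CPM in GWCBD30LPS, against 40.4, 39.3, 33.3 and 30.9 CPM in GWCBD30. GWCBD30LPS replicate 4 lay within the GWCBD30 range, and the log2 change was 0.27 ± 0.09 (edgeR adjusted p = 0.409). GWVehLPS libraries had 70.6, 73.9, 67.1 and 64.4 CPM, against 39.7, 35.7, 39.0 and 30.4 CPM in GWVeh (log2 0.93, edgeR adjusted p = 3.16e-08). The difference of -0.66 ± 0.12 was called (95% interval -0.91 to -0.41, edgeR adjusted p = 0.0293). C1qc averaged 31.8 ± 4.01 CPM in GWCBD30LPS and 27.3 ± 3.9 CPM in GWCBD30 (log2 0.22, edgeR adjusted p = 0.536), beside 46.6 ± 4.45 CPM in GWVehLPS and 25.6 ± 2.28 CPM in GWVeh. Its difference was -0.64 ± 0.13 (edgeR adjusted p = 0.0558). Itgb2, the beta chain of complement receptor 3, averaged 6.51 ± 1.54 CPM in GWCBD30LPS and 4.8 ± 0.65 CPM in GWCBD30 (log2 0.44, edgeR adjusted p = 0.459).

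The start window of C1qc is shown as the C1q gene in which a motif of PU.1, the myeloid transcription factor, was found. It holds the PU.1 letters GAGGAAGT on the opposite strand (ACTTCCTC, in capitals) 195 bases before the start, at chr4:136892865-136893164 (GRCm38.p6, minus strand), as did 3.2% of all windows. The window of C1qb held none of the 7 motifs searched. No window was available for C1qa, so that gene was not searched.
C1qc: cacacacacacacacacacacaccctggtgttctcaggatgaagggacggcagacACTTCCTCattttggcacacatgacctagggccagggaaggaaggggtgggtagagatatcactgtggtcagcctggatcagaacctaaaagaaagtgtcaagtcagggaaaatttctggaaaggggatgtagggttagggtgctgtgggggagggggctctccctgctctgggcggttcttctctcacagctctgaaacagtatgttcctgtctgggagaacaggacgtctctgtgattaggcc

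Astrocyte, myelin and neuronal genes also had small positive medians in the CBD arm. Of 15 astrocyte identity genes 14 were positive, 11 were higher at an unadjusted p under 0.05 and 8 did not overlap. Of all genes tested, 4.28% were higher at that p and 3.39% were higher without overlap. The list's median was 0.20 beside 0.19 in the vehicle arm and 0.12 in the control arm (0.21 without CtrlVehLPS replicate 1). None of the 15 was called by edgeR or DESeq2, and voom called 2. Glul, the glutamine synthetase of astrocytes, had 1305, 1351, 1313 and 1389 CPM in GWCBD30LPS, against 1204, 1141, 1094 and 1081 CPM in GWCBD30, without overlap (log2 0.25 ± 0.07, edgeR adjusted p = 0.269). Ndrg2 had 968, 1052, 978 and 870.5 CPM in GWCBD30LPS, against 809.7, 787.5, 812.5 and 731 CPM in GWCBD30, and Acsbg1 averaged 221.5 ± 7.6 CPM in GWCBD30LPS and 187 ± 13.8 CPM in GWCBD30. The exception was the water channel gene Aqp4, with 149, 167, 151 and 152 CPM in GWCBD30LPS, against 165, 158, 153 and 175 CPM in GWCBD30 (log2 -0.07, edgeR adjusted p = 0.863).

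Reactive astrocyte genes had no such shift. Of 35 genes 34 were tested, 19 were positive, and the median was 0.02, beside 0.38 in the vehicle arm and 0.10 in the control arm (0.18 without CtrlVehLPS replicate 1). Gfap, the intermediate filament that marks reactive astrocytes, averaged 337 ± 47.0 CPM in GWCBD30LPS and 283 ± 41.1 CPM in GWCBD30 with overlap (log2 0.25, edgeR adjusted p = 0.714). The protease inhibitor gene Serpina3n averaged 31 ± 6.45 CPM in GWCBD30LPS and 23.5 ± 2.08 CPM in GWCBD30 (log2 0.40, edgeR adjusted p = 0.567). Ptx3, a pentraxin near the floor, had 0.455, 0.44, 0.267 and 0.722 CPM in GWCBD30LPS, against 0.0843, 0, 0 and 0.202 CPM in GWCBD30. Its groups did not overlap (log2 2.64 ± 0.85, edgeR adjusted p = 0.409). Fbln5, an elastic fibre gene, averaged 15.0 ± 2.82 CPM in GWCBD30LPS and 10.3 ± 1.25 CPM in GWCBD30 (log2 0.54, edgeR adjusted p = 0.503).

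At an unadjusted p under 0.05, 7 of 24 myelin and oligodendrocyte genes were higher (4.28% of all genes). Without overlap 7 were higher (3.39% of all genes). Of the 24, 22 were positive, with a median of 0.18. The medians were 0.00 in the vehicle arm, where 1 member was called lower, and 0.07 in the control arm (0.14 without CtrlVehLPS replicate 1). Cldn11, the claudin of myelin, had 122.5, 127, 135 and 117 CPM in GWCBD30LPS, against 112, 108, 98.7 and 88.2 CPM in GWCBD30 (log2 0.31 ± 0.08, edgeR adjusted p = 0.184). Its vehicle-arm means were 119.0 ± 9.01 CPM in GWVehLPS and 119 ± 13.1 CPM in GWVeh. The difference between these responses of Cldn11 was 0.30 ± 0.11 (95% interval 0.09 to 0.52, edgeR adjusted p = 0.732). Mobp had 778, 896.5, 874 and 823 CPM in GWCBD30LPS, against 677, 693.5, 601 and 688 CPM in GWCBD30 (log2 0.34, edgeR adjusted p = 0.409), and the myelin regulator gene Myrf had 90.0 to 115 CPM in GWCBD30LPS, against 66.0 to 89.5 CPM in GWCBD30 (log2 0.29, edgeR adjusted p = 0.419). Mbp, a major myelin protein, averaged 3195 ± 312 CPM in GWCBD30LPS and 2627 ± 279 CPM in GWCBD30, its nearest libraries almost touching.

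Of 14 neuronal genes 13 were positive, with a median of 0.10. At an unadjusted p under 0.05, 5 of the 14 were higher (4.28% of all genes). Camk2a, the main kinase of excitatory synapses, had 2412, 2471, 2352 and 2576 CPM in GWCBD30LPS, against 2134, 2059, 2171 and 2213 CPM in GWCBD30, without overlap (log2 0.19, edgeR adjusted p = 0.418). Snap25 of the synaptic release machinery averaged 2252 ± 82.5 CPM in GWCBD30LPS and 2065 ± 132 CPM in GWCBD30 (log2 0.13, edgeR adjusted p = 0.554). Markers of unlike cells thus had positive medians together.

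Summed over their lists, levels of these cell types did not overlap between the groups. Neuronal markers summed to between 11148 and 11452 CPM in GWCBD30LPS, against 10145 to 10821 CPM in GWCBD30. Astrocyte markers summed to between 8329 and 8731 CPM in GWCBD30LPS, against 7161 to 7540.5 CPM in GWCBD30, and myelin markers to between 7523 and 8623 CPM in GWCBD30LPS, against 6121 to 7049 CPM in GWCBD30. Microglial markers summed to between 462 and 519 CPM in GWCBD30LPS, against 386 to 434 CPM in GWCBD30. The sum of olfactory bulb markers was higher too, with 393 to 450.4 CPM in GWCBD30LPS, against 362 to 382 CPM in GWCBD30, but that sum rests on a few abundant genes. Their mean log2 CPM was 2.40 to 2.49 in GWCBD30LPS replicates 1 to 3 and 3.36 in replicate 4, against 2.57 to 2.82 in GWCBD30, so that 3 of the 4 LPS libraries lay below all PBS libraries. Of the 16 bulb genes 9 had a positive change, with a median of 0.06, and the cerebellar sum overlapped (2663 to 3089 CPM in GWCBD30LPS, against 2659.5 to 3379.7 CPM in GWCBD30).

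A shift with expression level accompanied these lists. The tenth of genes with the lowest average level had a median change of -0.11 in the CBD arm and the tenth with the highest a median of 0.03, beside -0.09 and -0.01 in the vehicle arm and -0.10 and 0.03 in the control arm. The part of level in the list medians was not tested. With the olfactory bulb score as covariate the CBD-arm medians were 0.10 for neurons, 0.20 for astrocytes, 0.18 for myelin and 0.30 for microglia. Another scaling moved the median of all genes by at most 0.00269 on the log2 scale.

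**Figure D2:**
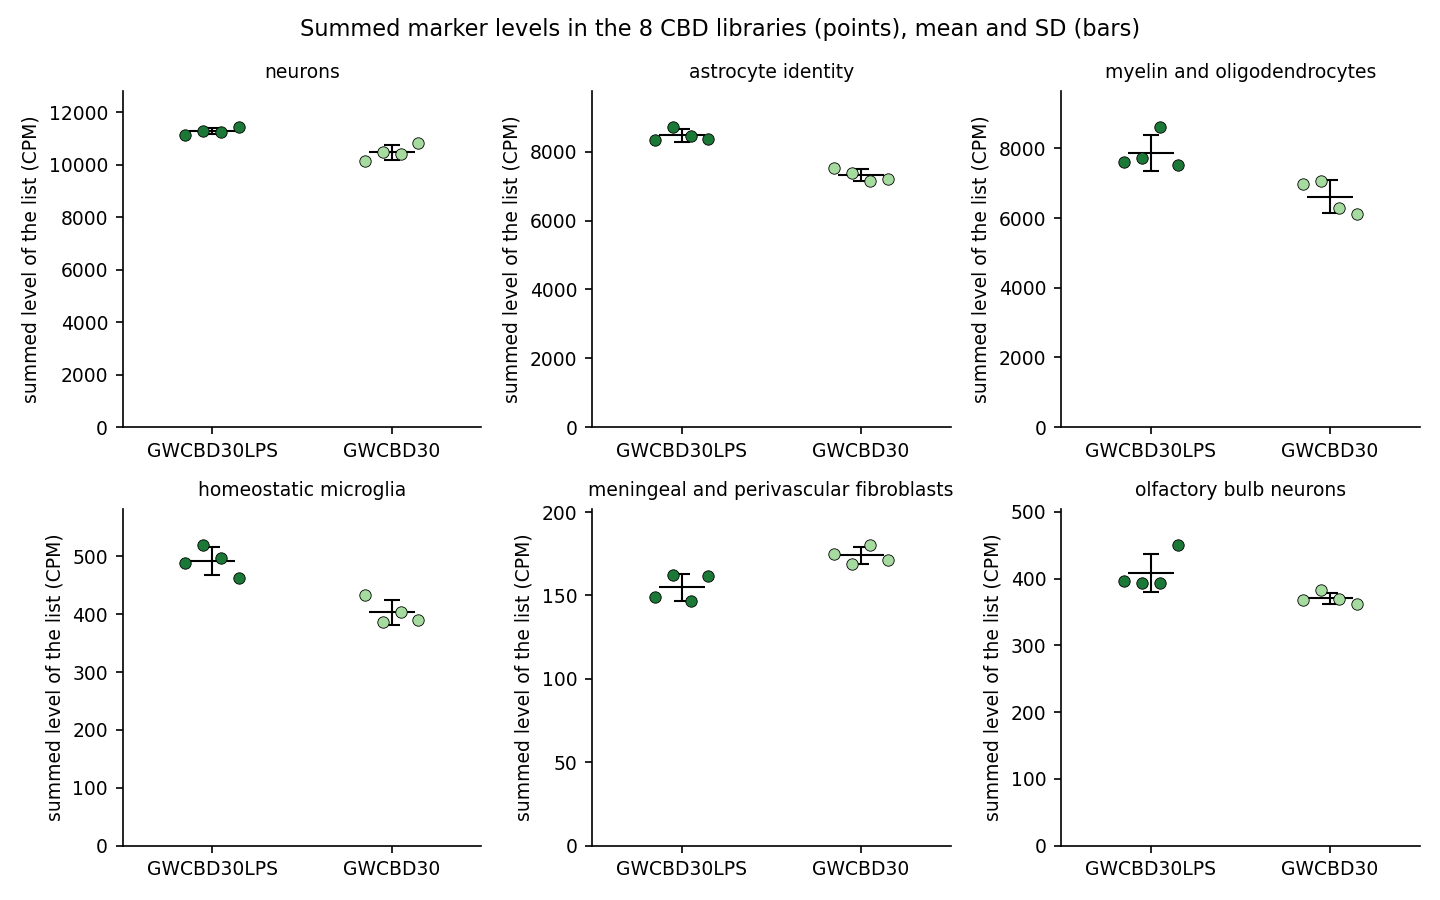
Summed level in CPM (vertical axis, from 0) of 6 marker lists in the 4 GWCBD30LPS and 4 GWCBD30 libraries (points), with mean and SD (bars). Neuronal, astrocyte, myelin and microglial sums were higher in every GWCBD30LPS library than in any GWCBD30 library, as was the olfactory bulb sum, although the mean log2 CPM of the bulb genes was lower in 3 of the 4 GWCBD30LPS libraries than in any GWCBD30 library. The fibroblast sum was lower in every GWCBD30LPS library.

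The difference between the LPS responses of CBD-treated and vehicle-treated exposed brains was tested directly. It was called for 9 genes (0.0449%), in each of which the response was smaller in the CBD arm: Fcgr3, Adgrl4, Icam1, C1qa, Olfml3, Fcgr4, Cd93, Ifitm3 and Pglyrp1. At an unadjusted p under 0.05 the difference was negative for 609 genes (3.04%) and positive for 531 (2.65%). DESeq2 called 24 genes (0.12%) and voom 42 (0.21%). The count rested in part on single libraries: it was 2 without GWCBD30 replicate 1, 3 without GWCBD30LPS replicate 4, GWCBD30 replicate 2, GWVehLPS replicate 1 or GWVeh replicate 2, 4 without GWVeh replicate 4, 5 without GWVeh replicate 3, 14 without GWCBD30LPS replicate 2 and 17 without GWVehLPS replicate 2 or CtrlVehLPS replicate 1. The set holds immunoglobulin receptors, complement and a secreted protein of microglia, surface molecules of endothelial cells, and an interferon target with an antimicrobial gene.

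Fcgr3 (1:171051174-171064935, minus strand) encodes an activating receptor for immunoglobulin G on microglia and macrophages. It had 8.19, 7.72, 9.36 and 7.0 CPM in GWCBD30LPS, against 9.23, 7.81, 6.88 and 8.81 CPM in GWCBD30. These libraries were interleaved, and the log2 change was -0.01 ± 0.13 (95% interval -0.28 to 0.25), a value so near 0 that its sign turned under voom (0.03). Fcgr3 had in the vehicle arm 17.3, 15.8, 14.9 and 13.4 CPM in GWVehLPS, against 6.34, 8.09, 7.67 and 5.51 CPM in GWVeh (log2 1.16, edgeR adjusted p = 8.48e-07). The difference was -1.17 ± 0.18 (95% interval -1.54 to -0.80, edgeR adjusted p = 0.00612), and it was called in all 27 alternatives.

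Fcgr4 (1:171018920-171029761, plus strand), another activating receptor of this family, had 16 counts in all in GWCBD30LPS and 44 in GWCBD30, a ratio of 0.331 (95% counting interval 0.175 to 0.599). The CPM values were 0.0975, 0.195, 0.344 and 0 in GWCBD30LPS, against 0.758, 0.509, 0.596 and 0.101 in GWCBD30, with 1 PBS library inside the LPS range. GWVehLPS had 101 counts and GWVeh 10, a ratio of 9.48 (95% counting interval 4.95 to 20.4). The difference was -4.69 ± 0.89 (edgeR adjusted p = 0.0293) and was called in 17 of 26 alternatives. In the control arm Fcgr4 had 13 counts in each CtrlVehLPS library, against 1, 5 and 6 in CtrlVeh. Of the 14 Fc receptor and adaptor genes, 11 were positive in the CBD arm with a median of 0.20, beside 0.81 in the vehicle arm, where 10 were called higher. The control-arm median was 0.66, with 1 called higher. The signalling members Plcg2 and Inpp5d, which act downstream of several receptors, had CBD-arm changes of 0.46 (edgeR adjusted p = 0.434) and 0.33 (edgeR adjusted p = 0.453), beside rises of 0.69 and 0.48 in the vehicle arm.

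Olfml3 (3:103722222-103738001, minus strand), a secreted protein of microglia, had 18.1, 16.6, 16.7 and 12.9 CPM in GWCBD30LPS, against 15.2, 15.4, 14.3 and 13.5 CPM in GWCBD30, with GWCBD30LPS replicate 4 lowest of all 8 libraries (log2 0.14, edgeR adjusted p = 0.775). It reached 27.8, 28.7, 33.1 and 23.3 CPM in GWVehLPS, against 14.5, 15.0, 15.9 and 11.4 CPM in GWVeh. The difference was -0.85 ± 0.16 (edgeR adjusted p = 0.0293). Ly86, the partner of a Toll-like receptor homologue, averaged 7.06 ± 0.985 CPM in GWCBD30LPS and 5.81 ± 1.14 CPM in GWCBD30, beside 13.7 ± 2.68 CPM in GWVehLPS and 5.8 ± 0.753 CPM in GWVeh, with a difference of -0.97 ± 0.21 that missed the threshold (edgeR adjusted p = 0.0599).

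Icam1 (9:21015985-21028817, plus strand) is the endothelial ligand that arrests leukocytes. It had 1.72, 1.51, 1.6 and 1.89 CPM in GWCBD30LPS, against 3.37, 2.4, 1.65 and 1.87 CPM in GWCBD30, the PBS mean being raised by replicates 1 and 2 (log2 -0.47 ± 0.22, edgeR adjusted p = 0.577). In the vehicle arm it had 4.58, 5.32, 5.52 and 4.22 CPM in GWVehLPS, against 2.43, 1.71, 1.86 and 1.92 CPM in GWVeh (log2 1.31, edgeR adjusted p = 0.000317). The difference was -1.78 ± 0.30 (95% interval -2.40 to -1.16, edgeR adjusted p = 0.00904). It was called in 26 of 27 alternatives and lost without GWCBD30 replicate 1 (edgeR adjusted p = 0.0758). Exons of Icam1 share 511 bp with the antisense gene Gm47079, and as the strand setting of the counting is not given, reads of the pair cannot be told apart. The same holds for other pairs that overlap on opposite strands, among them Csf1r with Hmgxb3, Dbp with Sphk2 and Adora1 with Mybph.

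Adgrl4 (3:151437887-151545086, plus strand), an adhesion G protein-coupled receptor of endothelium, had 7.19, 8.65, 7.6 and 7.89 CPM in GWCBD30LPS, against 8.17, 9.02, 7.98 and 8.96 CPM in GWCBD30, with overlap (log2 -0.13, edgeR adjusted p = 0.817). GWVehLPS libraries had 11, 15.7, 12.2 and 14.7 CPM, against 7.02, 7.28, 7.54 and 6.87 CPM in GWVeh, and the difference of -1.02 ± 0.17 was called in all 27 alternatives (edgeR adjusted p = 0.00734). In the control arm Adgrl4 had 243, 165 and 134 counts in CtrlVehLPS, against 158, 171 and 247 in CtrlVeh. Cd93 (2:148436640-148443563, minus strand), a lectin-like receptor of endothelium and myeloid cells, averaged 3.25 ± 0.662 CPM in GWCBD30LPS and 3.89 ± 0.658 CPM in GWCBD30, beside 7.79 ± 2.46 CPM in GWVehLPS and 3.27 ± 0.569 CPM in GWVeh. Its difference was -1.51 ± 0.30 (edgeR adjusted p = 0.0363) and held in 15 of 27 alternatives. In the control arm Cd93 had 101, 82 and 102 counts in CtrlVehLPS, against 83, 82 and 118 in CtrlVeh.

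Ifitm3 (7:141009586-141010770, minus strand), an interferon-induced membrane protein that blocks virus entry, had 10.3, 8.16, 8.33 and 6.89 CPM in GWCBD30LPS, against 8.64, 7.12, 11.4 and 6.63 CPM in GWCBD30. The groups were interleaved and the log2 change was 0.00 ± 0.18 (95% interval -0.36 to 0.36). It averaged 17.2 ± 2.71 CPM in GWVehLPS and 7.02 ± 1.82 CPM in GWVeh, without overlap (log2 1.30, edgeR adjusted p = 6.62e-05). The difference was -1.29 ± 0.25 (edgeR adjusted p = 0.0402) and held in 15 of 27 alternatives. Pglyrp1 (7:18871331-18890459, plus strand), which binds bacterial peptidoglycan, had 4.1, 3.66, 2.18 and 3.06 CPM in GWCBD30LPS, against 3.58, 3.01, 3.81 and 2.58 CPM in GWCBD30, again interleaved. For both Ifitm3 and Pglyrp1 the CBD-arm value was so near 0 that its sign depended on the setting. The Pglyrp1 difference was -1.39 ± 0.28 (edgeR adjusted p = 0.0471), held in 14 of 27 alternatives. In the control arm Pglyrp1 had 119, 96 and 56 counts in CtrlVehLPS, against 58, 68 and 79 in CtrlVeh.

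Start windows of Ifitm3, Fcgr4 and Icam1 are shown because, of the windows available for these 9 genes, theirs held the interferon response element or the GAS motif. RefSeq windows of Olfml3 and Adgrl4 held none of the 7 motifs, and those of Fcgr3 and Pglyrp1 held an NF-kB motif, searched as GGG and TTCC 3 bases apart (5.56% of all windows on either strand), as did that of Ifitm3 116 bases before the start. No window was available for C1qa or Cd93, so neither was searched. Capitals mark the interferon response element, GAAA and GAAA 2 bases apart, in Ifitm3 and Fcgr4 (3.44% of all windows) and the GAS motif TTCNNNGAA in Icam1. Ifitm3 has the element starting 3 and 20 bases from the start, at chr7:141010695-141010994 (minus strand), with a GAS match that runs into the second one. Fcgr4 has it 73 bases before the start, at chr1:171018676-171018975 (plus strand), and a PU.1 motif 24 bases before. Icam1 has its match 42 bases before the start, at chr9:21015690-21015989 (plus strand). A match is a run of letters and does not show that a factor binds there.
Ifitm3: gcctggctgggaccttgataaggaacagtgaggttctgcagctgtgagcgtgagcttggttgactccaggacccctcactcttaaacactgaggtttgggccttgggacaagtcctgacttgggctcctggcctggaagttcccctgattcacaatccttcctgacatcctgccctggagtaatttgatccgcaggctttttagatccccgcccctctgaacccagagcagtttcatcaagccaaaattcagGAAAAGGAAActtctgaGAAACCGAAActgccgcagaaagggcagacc
Fcgr4: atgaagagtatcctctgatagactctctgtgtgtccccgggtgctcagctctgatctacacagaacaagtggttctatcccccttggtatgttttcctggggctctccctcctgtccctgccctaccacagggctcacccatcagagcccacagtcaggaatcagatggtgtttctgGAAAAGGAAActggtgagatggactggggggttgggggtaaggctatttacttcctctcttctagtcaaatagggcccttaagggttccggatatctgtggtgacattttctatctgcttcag
Icam1: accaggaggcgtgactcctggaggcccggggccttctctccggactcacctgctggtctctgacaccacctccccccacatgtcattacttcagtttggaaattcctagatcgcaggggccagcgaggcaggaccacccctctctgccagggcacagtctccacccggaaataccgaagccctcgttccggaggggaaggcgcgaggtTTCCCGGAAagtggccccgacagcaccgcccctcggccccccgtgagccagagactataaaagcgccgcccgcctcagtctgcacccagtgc

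**Figure D3:**
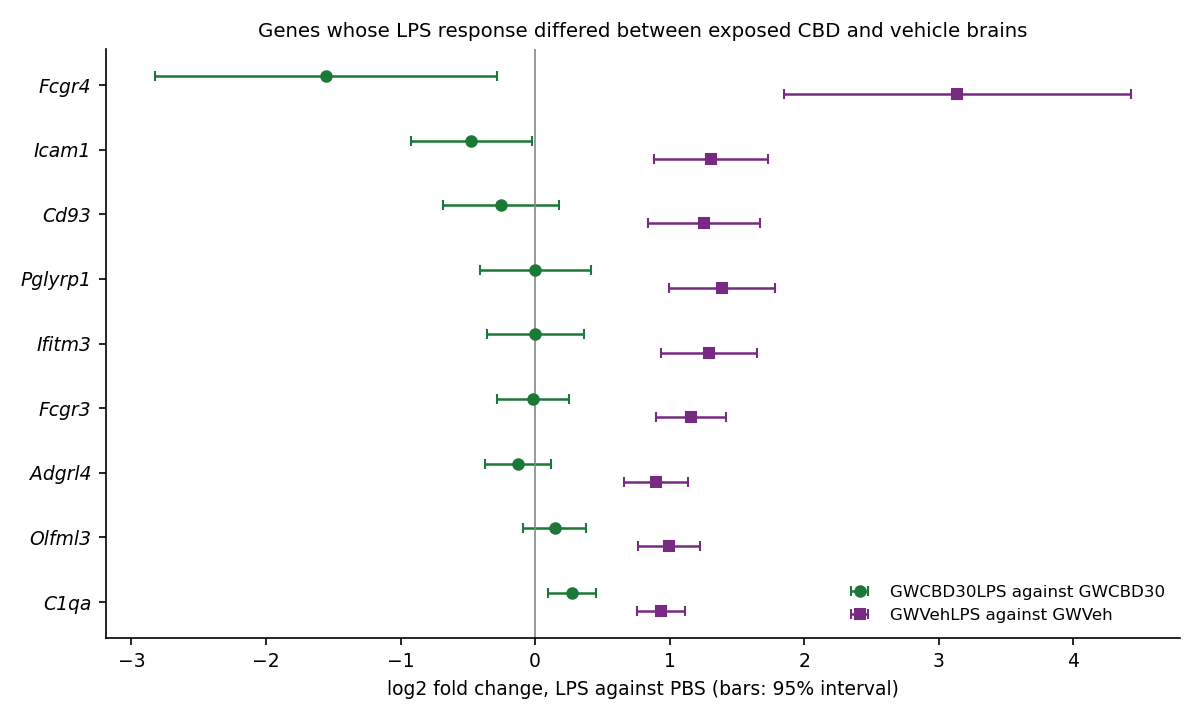
Log2 fold change of LPS over PBS (horizontal axis) with its 95% interval for the 9 genes whose responses differed, in the CBD arm (circles) and the exposed vehicle arm (squares). CBD-arm values ran from -1.56 for Fcgr4 to 0.27 for C1qa, and each vehicle-arm value was above 0.

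Set against the control arm, the CBD response differed in 1 gene (0.00499%), the pseudogene Gm9522 (-7.55 on the log2 scale), at which GWCBD30LPS held 1 count. That call was lost in 10 of 22 alternatives, among them the olfactory bulb score as covariate, each setting without 1 GWCBD30LPS library and that without CtrlVehLPS replicate 1, and DESeq2 gave the gene no adjusted p. By that tool 10 genes (0.0499%) were called, Gm9522 not among them, and by voom 14 (0.0699%), and at an unadjusted p under 0.05 the difference was negative for 568 genes (2.84%) and positive for 447 (2.23%). Chemicals and CBD differ together in that contrast and cannot be told apart.

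Genes that rose with LPS in the vehicle arm were followed in the CBD arm. There were 166 of them (0.829% of the genes tested), with a median change of 0.78 in the vehicle arm, where they were chosen. In the CBD arm 139 of the 166 (83.7%) were positive and the median was 0.17. Of these, 45 were higher at an unadjusted p under 0.05 (4.28% of all genes), 34 did not overlap (3.39% of all genes were higher without overlap), and 1 was called. For 144 of the 166 the 95% interval of the CBD-arm change left out the vehicle-arm value. That count leaves out the error of the vehicle-arm value, by which the genes were chosen, and is no test. The test of the difference called 9 genes. The same genes had a median of 0.46 in the control arm (0.53 without CtrlVehLPS replicate 1, and 0.53 with the olfactory bulb score as covariate), with 158 positive. For 143 the CBD-arm change was smaller than the control-arm change. Libraries of the CBD and control arms entered the choice of these genes only through the shared filter, scaling and estimate of spread. Leaving out any 1 of the 8 CBD libraries moved the CBD median between 0.13 and 0.21. Since the genes were chosen by their vehicle-arm values, these sizes are a description.

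The 22 genes that fell in the vehicle arm (0.11%) had medians of -0.13 in the CBD arm (21 with the same sign), -0.37 in the vehicle arm and -0.21 in the control arm. Genes chosen in the control arm were also followed: 83 rose there (0.414%) with a median of 0.59, and their median was 0.15 in the CBD arm (73 positive) and 0.29 in the vehicle arm (72 positive). For 61 of these 83 the change was smaller in the CBD arm than in the vehicle arm. Without CtrlVehLPS replicate 1, 56 genes rose in the control arm, with medians of 0.20 in the CBD arm, 0.42 in the vehicle arm and 0.64 in the control arm. With the olfactory bulb score as covariate 19 rose, with medians of 0.27 in the CBD arm, 0.87 in the vehicle arm and 0.95 in the control arm.

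**Figure D4:**
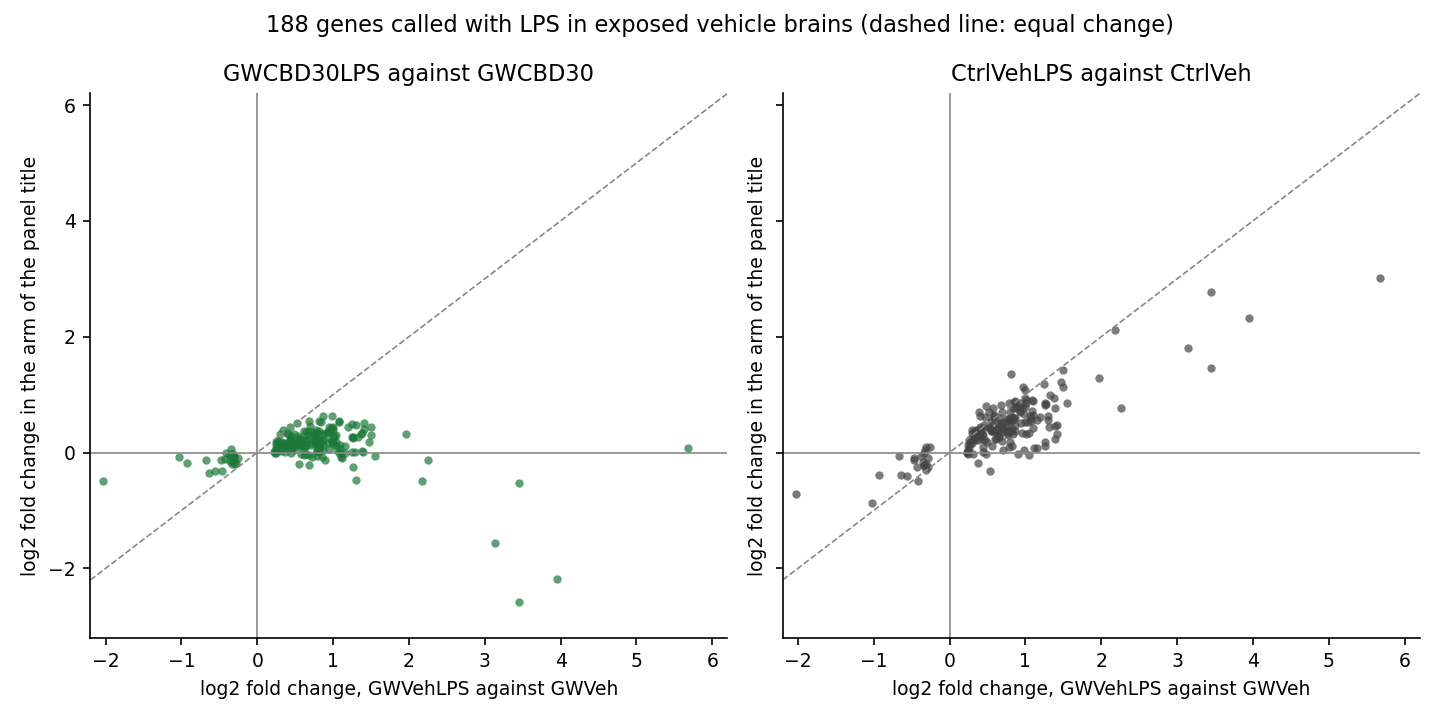
Log2 fold change with LPS in the CBD arm (left panel) and the control arm (right panel) against that in the exposed vehicle arm (horizontal axes) for the 188 genes called in the vehicle arm. Points on the dashed line would change equally, and those of the CBD arm lie mostly between that line and 0 (median 0.17 for the 166 higher genes, against 0.78 in the vehicle arm).

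Genes of the vessel wall showed no shared rise in the CBD arm. Of 13 endothelial leukocyte adhesion genes 7 were positive with a median of 0.00, beside 0.59 in the vehicle arm, where 5 were called higher. The control-arm median was 0.19, with 1 called higher (0.25 without CtrlVehLPS replicate 1). Selp, which encodes P-selectin, had 1 count in all in GWCBD30LPS and 8 in GWCBD30 (ratio 0.114, 95% counting interval 0.00257 to 0.85), whereas GWVehLPS had 62 and GWVeh 5. Sele, which encodes E-selectin, had 2 counts in GWCBD30LPS and 10 in GWCBD30 (ratio 0.182, 95% counting interval 0.0194 to 0.855), and 87 in GWVehLPS and 5 in GWVeh (ratio 16.3, 95% counting interval 6.74 to 51.6). Both selectins therefore lay at or under the floor in GWCBD30LPS. The differences between arms missed the threshold for Selp (edgeR adjusted p = 0.115) and Sele (edgeR adjusted p = 0.0843).

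Vcam1, the other main endothelial ligand, had between 19.2 and 21.1 CPM in GWCBD30LPS, against 15.6 to 19.8 CPM in GWCBD30 (log2 0.11, edgeR adjusted p = 0.815). Selplg, the ligand of P-selectin, had 20.3, 18.3, 19.1 and 21.2 CPM in GWCBD30LPS, against 17.1, 18.0, 16.9 and 15.7 CPM in GWCBD30, without overlap (log2 0.22, edgeR adjusted p = 0.536); the gene is also expressed by microglia. Blood-brain barrier and endothelial identity genes had a median of 0.03, with 18 of 26 positive, beside 0.25 and 5 called higher in the vehicle arm. Their control-arm median was 0.03 as well (0.08 without CtrlVehLPS replicate 1), with none called higher and 1 called lower. Pecam1 averaged 9.8 ± 0.764 CPM in GWCBD30LPS and 11.4 ± 1.76 CPM in GWCBD30 (log2 -0.21, edgeR adjusted p = 0.709). The tight junction gene Cldn5 averaged 15.2 ± 1.71 CPM in GWCBD30LPS and 15.5 ± 1.38 CPM in GWCBD30, and the sign of its small difference turned with the library left out. The glucose transporter gene Slc2a1 averaged 70.8 ± 4.68 CPM in GWCBD30LPS and 60.2 ± 8.53 CPM in GWCBD30 (log2 0.24, edgeR adjusted p = 0.497). Pecam1 averaged in the vehicle arm 17.3 ± 2.86 CPM in GWVehLPS and 10.8 ± 1.24 CPM in GWVeh (log2 0.69, edgeR adjusted p = 0.00408), and the responses differed by -0.90 ± 0.19 (edgeR adjusted p = 0.0631).

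Of the 14 Ly6 family genes 9 were tested, 7 of them positive, with a median of 0.13 beside 0.09 in the vehicle arm, where 3 were called higher and 5 of the 9 were positive. The difference between the arms was negative for 4 of the 9 (median 0.04). The endothelial members Ly6c1 and Ly6a, chosen after their values were seen, were among these 4. Ly6c1 averaged 13 ± 2.17 CPM in GWCBD30LPS and 11.9 ± 1.48 CPM in GWCBD30 (log2 0.13, edgeR adjusted p = 0.851), beside 25.9 ± 4.16 CPM in GWVehLPS and 12.1 ± 2.72 CPM in GWVeh, a difference of -0.96 ± 0.20 (edgeR adjusted p = 0.0599). Ly6a averaged 11.5 ± 1.37 CPM in GWCBD30LPS and 9.17 ± 0.976 CPM in GWCBD30 (log2 0.33, edgeR adjusted p = 0.695), beside 26.2 ± 5.33 CPM in GWVehLPS and 10.1 ± 3.92 CPM in GWVeh.

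Acute phase genes ranged from Serpina3n, described above, to genes near the floor. Of 23 such genes counted, 15 were tested, 5 of them positive, with a median of -0.17, beside 0.58 in the vehicle arm, where 3 were called higher. The control-arm median was 0.10, with none called (0.23 without CtrlVehLPS replicate 1). Lcn2, which encodes the iron-sequestering lipocalin 2, had 0.52, 0.684, 0.726 and 0.445 CPM in GWCBD30LPS, against 1.98, 0.878, 0.183 and 0.304 CPM in GWCBD30. The PBS libraries spread more widely than the LPS libraries (log2 -0.52 ± 0.97, edgeR adjusted p = 0.922), and the sign turned without GWCBD30 replicate 1. GWVehLPS had 1099 counts of Lcn2 and GWVeh 94, a ratio of 11 (95% counting interval 8.88 to 13.7). Saa3, serum amyloid A3, had 14 counts in GWCBD30LPS and 12 in GWCBD30 (ratio 1.06, 95% counting interval 0.456 to 2.52), beside 141 in GWVehLPS and 2 in GWVeh (ratio 66.2, 95% counting interval 18 to 552).

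Interferon-stimulated genes were slightly positive as a group, with a median of 0.12 and 31 of the 42 tested above 0. None of the 42 was free of overlap, where 3.39% of all genes tested were higher and 2.85% lower without overlap. Medians were 0.65 in the vehicle arm, where 9 were called higher, and 0.20 in the control arm. Irf7, the regulator of interferon production, averaged 2.56 ± 0.552 CPM in GWCBD30LPS and 2.26 ± 1.03 CPM in GWCBD30, with GWCBD30 replicate 3 highest of the 8 libraries at 3.81 CPM (log2 0.18, edgeR adjusted p = 0.919). The immunoproteasome subunit gene Psmb9 averaged 1.8 ± 0.218 CPM in GWCBD30LPS and 1.11 ± 0.601 CPM in GWCBD30 (log2 0.69, edgeR adjusted p = 0.605). Xaf1 was on the other side of 0, with 4.36 ± 1.21 CPM in GWCBD30LPS and 5.74 ± 0.753 CPM in GWCBD30 (log2 -0.38, edgeR adjusted p = 0.546).

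Among 28 genes of the LPS receptor and the NF-kB pathway 18 were positive, with a median of 0.14 beside 0.26 in the vehicle arm and 0.08 in the control arm (0.205 without CtrlVehLPS replicate 1). Cd14, the co-receptor of LPS, had 2.57, 2.83, 2.22 and 2.22 CPM in GWCBD30LPS, against 1.73, 1.99, 1.79 and 1.37 CPM in GWCBD30, without overlap (log2 0.51 ± 0.22, edgeR adjusted p = 0.546). Its receptor gene Tlr4 averaged 1.88 ± 0.345 CPM in GWCBD30LPS and 1.31 ± 0.28 CPM in GWCBD30 with overlap (log2 0.52, edgeR adjusted p = 0.635). Nfkb1, which encodes the p50 subunit, had 25.7, 27.7, 24.3 and 25.9 CPM in GWCBD30LPS, against 23.7, 22.9, 23.9 and 20.1 CPM in GWCBD30, and Tnip1, an inhibitor of the pathway, had 32.1, 32.1, 32.5 and 34.0 CPM in GWCBD30LPS, against 29.7, 28.0, 30.8 and 24.7 CPM in GWCBD30. Neither overlapped between groups and neither passed the test (edgeR adjusted p = 0.533 and 0.536).

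Soluble mediators had no gene called. Of 21 chemokine genes 12 were tested and 4 were positive, with a median of -0.19 beside 0.38 in the vehicle arm, and of 18 tested genes of IL-1, TNF and IL-6 signalling 10 were positive, with a median of 0.03 beside 0.39. Control-arm medians were -0.14 for chemokines (-0.17 without CtrlVehLPS replicate 1) and 0.24 for IL-1, TNF and IL-6 signalling (0.36 without it). The abundant chemokine gene Cx3cl1, the neuronal ligand of a microglial receptor, averaged 553.8 ± 20.2 CPM in GWCBD30LPS and 515.3 ± 25.5 CPM in GWCBD30 (log2 0.10, edgeR adjusted p = 0.698). Cxcl12 averaged 31.1 ± 2.08 CPM in GWCBD30LPS and 35.6 ± 2.84 CPM in GWCBD30 (log2 -0.19, edgeR adjusted p = 0.711), and both overlapped. The monocyte chemokine gene Ccl12 had 0.358, 0.635, 0.153 and 0.111 CPM in GWCBD30LPS, against 0.463, 0.693, 0.367 and 0.253 CPM in GWCBD30, in part below the floor (log2 -0.50, edgeR adjusted p = 0.844). GWVehLPS averaged 1.15 ± 0.346 CPM of it and GWVeh 0.249 ± 0.199 CPM (log2 2.18, edgeR adjusted p = 0.0215).

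**Figure D5:**
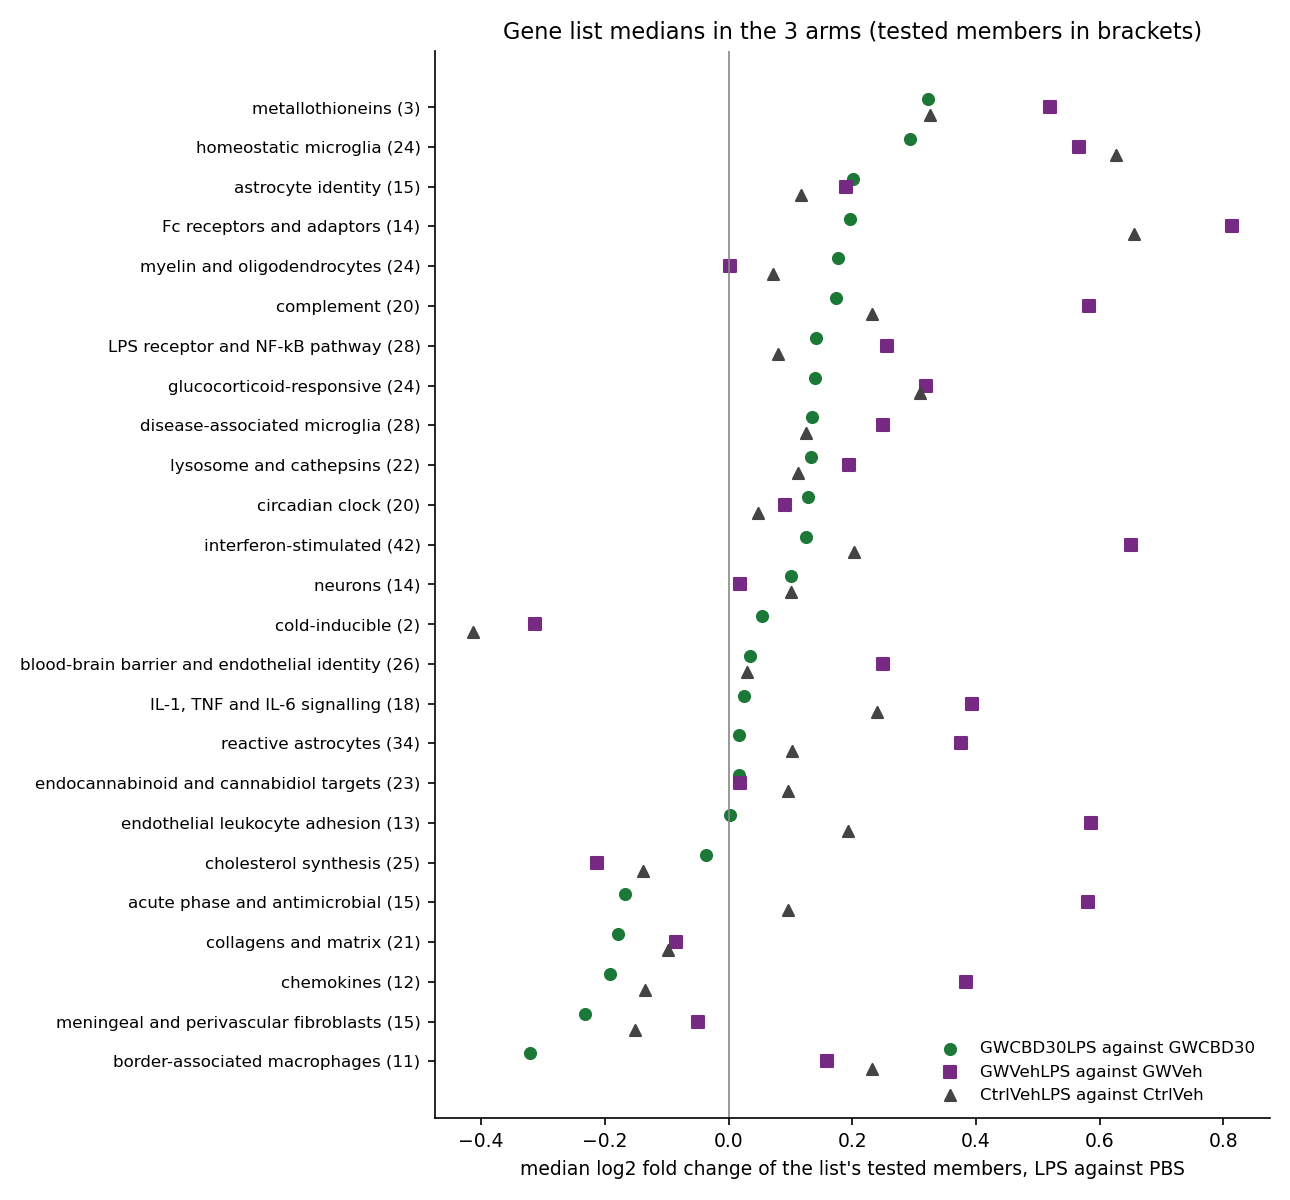
Median log2 fold change of LPS over PBS (horizontal axis) over the tested members of 25 gene lists in the CBD arm (circles), the exposed vehicle arm (squares) and the control arm (triangles). In the CBD arm the medians ran from -0.32 for border-associated macrophages to 0.32 for metallothioneins, and those of the Fc receptor, interferon, complement, adhesion and acute phase lists stood well below the vehicle-arm medians. Control-arm medians of these same lists, from 0.10 to 0.66, were also below the vehicle-arm medians.

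Genes of the brain's coverings and matrix had negative medians in the CBD arm. Of 15 meningeal and perivascular fibroblast genes 1 was positive and 4 were lower at an unadjusted p under 0.05 (3.94% of all genes). The list's median was -0.23 beside -0.05 in the vehicle arm and -0.15 in the control arm (-0.06 without CtrlVehLPS replicate 1). Summed over the list, the level was 147 to 162 CPM in GWCBD30LPS, against 169.0 to 180.2 CPM in GWCBD30, without overlap. Slc6a13, the GABA and taurine transporter of the meninges, had 9.49, 7.38, 7.18 and 11 CPM in GWCBD30LPS, against 11.3, 13.5, 16.3 and 12.2 CPM in GWCBD30 (log2 -0.61 ± 0.17, edgeR adjusted p = 0.329). These groups did not overlap. Crabp2, which carries retinoic acid, averaged 1.52 ± 0.428 CPM in GWCBD30LPS and 2.53 ± 0.643 CPM in GWCBD30 (log2 -0.73, edgeR adjusted p = 0.416), and Col3a1 averaged 1.78 ± 0.562 CPM in GWCBD30LPS and 2.64 ± 0.279 CPM in GWCBD30 (log2 -0.59, edgeR adjusted p = 0.485).

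Of 21 collagen and matrix genes 2 were positive, with a median of -0.18. At an unadjusted p under 0.05, 7 were lower (3.94% of all genes) and 1 was higher (4.28% of all genes). Without overlap, 2 were lower, where 2.85% of all genes were. Col4a2 of basement membranes had 40.4, 34.6, 42.0 and 40.6 CPM in GWCBD30LPS, against 51.4, 54.0, 50.9 and 45.4 CPM in GWCBD30 (log2 -0.35 ± 0.09, edgeR adjusted p = 0.248). Col5a1 of fibrillar collagen had 22, 19.7, 20.3 and 23 CPM in GWCBD30LPS, against 24.9, 28.2, 28.8 and 26.3 CPM in GWCBD30 (log2 -0.35, edgeR adjusted p = 0.266), and in the vehicle arm it fell by 0.63 on the log2 scale (edgeR adjusted p = 0.00011). The member on the higher side was Sparc, a matrix-binding protein of microglia and endothelium, with 557, 579, 594 and 517.5 CPM in GWCBD30LPS, against 407, 435.5, 393 and 351 CPM in GWCBD30 (log2 0.50 ± 0.11, edgeR adjusted p = 0.124).

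Border-associated macrophages, which live in the same coverings, had the lowest list median of the 25 described, -0.32 with 2 of the 11 tested genes positive, beside 0.16 in the vehicle arm and 0.23 in the control arm. That control-arm median was 0.14 without CtrlVehLPS replicate 1 and -0.08 with the olfactory bulb score as covariate. F13a1 had 1.72, 2.49, 1.64 and 1.78 CPM in GWCBD30LPS, against 3.2, 2.73, 2.66 and 2.43 CPM in GWCBD30, with GWCBD30LPS replicate 2 inside the PBS range (log2 -0.54, edgeR adjusted p = 0.565). The scavenger receptor gene Cd163 averaged 2.49 ± 0.329 CPM in GWCBD30LPS and 3.45 ± 1.28 CPM in GWCBD30, where replicate 3 stood at 5.37 CPM. The mannose receptor gene Mrc1 averaged 2.41 ± 0.61 CPM in GWCBD30LPS and 3.16 ± 0.186 CPM in GWCBD30 (log2 -0.38, edgeR adjusted p = 0.689). The fibroblast sum moves with these macrophage genes, and its part in them was not tested.

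Circadian genes had a small positive median in the CBD arm. Of 20 circadian genes 14 were positive and 7 were higher at an unadjusted p under 0.05 (4.28% of all genes). The list's median was 0.13 beside 0.09 in the vehicle arm and 0.05 in the control arm. Per2, a repressor of the clock that glucocorticoids also induce, had 44.3, 42.8, 43.1 and 41.3 CPM in GWCBD30LPS, against 35.3, 35.9, 35.2 and 29.3 CPM in GWCBD30, without overlap (log2 0.34 ± 0.09, edgeR adjusted p = 0.208). Hlf had 221, 226, 213 and 210.6 CPM in GWCBD30LPS, against 197, 196, 189 and 194 CPM in GWCBD30 (log2 0.17, edgeR adjusted p = 0.403), and Dbp averaged 62.4 ± 5.87 CPM in GWCBD30LPS and 51.8 ± 6.47 CPM in GWCBD30 (log2 0.27, edgeR adjusted p = 0.416). The vehicle-arm change of Per2 was 0.31 (edgeR adjusted p = 0.0823).

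Metallothionein genes, which bind zinc and answer to glucocorticoids, were all 3 positive, with a median of 0.32. Mt1 had 156, 163, 155 and 161 CPM in GWCBD30LPS, against 126, 141, 125 and 116 CPM in GWCBD30 (log2 0.32, edgeR adjusted p = 0.536), and the brain form Mt3 had 133, 114, 134.5 and 138 CPM in GWCBD30LPS, against 111, 111, 109.9 and 78.2 CPM in GWCBD30 (log2 0.34, edgeR adjusted p = 0.51). Neither overlapped. By contrast, the cold-inducible RNA-binding gene Rbm3 stood at 55.5 ± 2.84 CPM in GWCBD30LPS and 56.0 ± 4.51 CPM in GWCBD30 (log2 -0.01, 95% interval -0.19 to 0.16, its sign turning with the library left out), where the vehicle arm fell by 0.41 on the log2 scale (edgeR adjusted p = 0.00818). The difference of 0.40 ± 0.12 for Rbm3 did not pass (edgeR adjusted p = 0.597). Cholesterol synthesis genes had a median of -0.04 with none called, beside -0.21 and 4 called lower in the vehicle arm, and -0.14 and 2 called lower in the control arm.

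Of the genes through which cannabinoids act, none was called. The list of endocannabinoid and CBD targets had a median of 0.02 with 14 of 23 tested genes positive. The CB1 receptor gene Cnr1 averaged 199.9 ± 17.2 CPM in GWCBD30LPS and 215 ± 23.8 CPM in GWCBD30 (log2 -0.11, 95% interval -0.27 to 0.05), and the CB2 receptor gene Cnr2 lay near the floor at 0.219 ± 0.0942 CPM in GWCBD30LPS and 0.337 ± 0.184 CPM in GWCBD30. Adora1, the adenosine A1 receptor gene, had 199, 182.5, 195 and 209 CPM in GWCBD30LPS, against 172, 179.0, 173 and 169 CPM in GWCBD30, without overlap (log2 0.18, edgeR adjusted p = 0.409).

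Markers of other tissues and of blood cells were compared last. Red blood cell markers summed to between 397 and 545 CPM in GWCBD30LPS and between 308.0 and 486 CPM in GWCBD30, and choroid plexus markers to between 536 and 712 CPM in GWCBD30LPS and between 499 and 674 CPM in GWCBD30, both with overlap. Neutrophil markers summed to between 10.4 and 12.3 CPM in GWCBD30LPS and between 8.72 and 15.7 CPM in GWCBD30, with S100a9 at 0.334 ± 0.197 CPM in GWCBD30LPS and 0.879 ± 0.693 CPM in GWCBD30. The neutrophil gene Ly6g had 0 counts in GWCBD30LPS and 3 in GWCBD30, and T and B lymphocyte markers summed to between 28 and 35.1 CPM in GWCBD30LPS and between 28.3 and 38.3 CPM in GWCBD30, with overlap. Of 17 lymphocyte genes 6 were tested and 4 of those were positive; Cd3g had 0 counts in GWCBD30LPS and 8 in GWCBD30, and Trac 127 in GWCBD30LPS and 96 in GWCBD30. Of the 16 olfactory bulb genes the 2 higher at an unadjusted p under 0.05 (4.28% of all genes) were Calb2 and Trh. Sp8 had 184 counts in GWCBD30LPS and 231 in GWCBD30, and S100a5 28 in GWCBD30LPS and 32 in GWCBD30. Calb2 had 118 to 126 CPM in GWCBD30LPS, against 81.0 to 109 CPM in GWCBD30 (log2 0.32, edgeR adjusted p = 0.369), and Trh averaged 10.7 ± 1.78 CPM in GWCBD30LPS and 7.26 ± 1.24 CPM in GWCBD30 (log2 0.55, edgeR adjusted p = 0.394).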

How the data were processed

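Poly(A)-selected, stranded libraries of whole brain were read as paired 150 bp Illumina reads and aligned to GRCm38/mm10, per the series design. The authors deposited raw read counts per gene, 1 column per library, for 56748 identifiers, of which 2693 have no symbol of their own. Which aligner, counter, strand setting and annotation were used is not given in the sources used here.

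Counts of the 22 libraries were scaled by TMM, filtered with filterByExpr (20026 genes) and fitted with 6 group means by edgeR 4.0.16 (quasi-likelihood, robust, 16 residual degrees of freedom, common biological variation 0.103) in R 4.3.3. Each test was two-sided, p-values were adjusted over all genes tested (Benjamini-Hochberg), and the threshold was 0.05. The LPS contrast of each arm and the differences of those contrasts were tested in the same fit, so that the arms share 1 estimate of spread. Totals were 17152595 to 31150515 counts. The floor of 3 counts, per library, and the counting intervals (95%) cover counting error only. Summed levels add the CPM of a list's members.

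Alternatives were other scalings, other filters, DESeq2 1.42.0, limma 3.58.1 with voom weights, a fit on the compared groups alone, a replicate block, an olfactory bulb score or 1 surrogate variable (sva 3.50.0) as covariate, and leaving out each library. Control-arm values without CtrlVehLPS replicate 1 or with the bulb score were added after seeing the data. The fit was tested on simulated data.

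The members and gene lists were chosen with earlier results of these data known. Of 49 lists, 25 are described. Genes were named by rule: those past the threshold, in each list up to 6 members past it or else the 3 with the smallest p, in each difference the 6 with the smallest p, a list's defining genes, and any marker of another tissue. Genes outside this rule were chosen after their values were seen: those near the threshold, the remaining called differences, and Lcn2, Sele, Saa3, Irf7, Ly6a, Ly6c1, Ly86, Plin4, Sult1a1, Sgk1, Sp8, S100a5 and Trac. Gene positions come from GENCODE M21 on GRCm38, which matched 52073 identifiers, and promoter windows from RefSeq. Replicates of a group differed by more than sampling noise in all 12 pairs of the CBD arm, so each library counts as 1 sample. Some genes that the rule names are not reported here.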

Additional observations from a re-analysis of the deposited data

Results flagged for a closer look

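In groups of 4, 206 sets of values from the CBD arm were checked for a library that stood apart from the other libraries of its group (Dixon's test at the 95% level), and 16 did, where chance gives about 1 in 20. In GWCBD30LPS, replicate 1 stood apart for Sele (0.065 CPM, the others at 0). Replicate 2 stood apart for Selp (0.0489 CPM, the others at 0), F13a1 (2.49 CPM, the others 1.64 to 1.78) and Aqp4 (167.0 CPM, the others 149 to 152). Replicate 3 stood apart for Gm9522 (0.0382 CPM, the others at 0), Saa3 (0.42 CPM, the others 0 to 0.065), Myorg (41.5 CPM, the others 38.9) and, on the low side, mt-Tc (12.9 CPM, the others 15.8 to 16.4). Replicate 4 was low for Pecam1 (8.67 CPM, the others 10.1 to 10.4). Where the others are all at 0, any count is flagged, so the flags for Sele, Selp and Gm9522 were fixed in advance. They rest on 2, 1 and 1 counts, under the floor of 3, and are among the 16.

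In GWCBD30, replicate 1 stood apart for Saa3 (0.337 CPM, the others 0.0462 to 0.0917). Replicate 3 was high for the scavenger receptor gene Cd163 (5.37 CPM, the others 2.64 to 2.99) and for Irf7 (3.81 CPM, the others 1.72 to 1.8). Replicate 4 was low for Ctsz (31.2 CPM, the others 36.7 to 37.5), Per2 (29.3 CPM, the others 35.2 to 35.9), Mt3 (78.2 CPM, the others 109.9 to 111) and Irx2 (5.01 CPM, the others 6.01 to 6.19). The part of these libraries in the group differences was not tested beyond leaving each one out.

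The LPS responses of the CBD and exposed vehicle arms differed by the test of the difference itself, on the log2 scale, in C1qa (-0.66), Olfml3 (-0.85), Fcgr3 (-1.17), Ifitm3 (-1.29), Adgrl4 (-1.02), Cd93 (-1.51), Pglyrp1 (-1.39), Icam1 (-1.78) and Fcgr4 (-4.69). Against the control arm, the response differed in Gm9522 (-7.55), a pseudogene with 1 count in GWCBD30LPS.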

How the results depend on the processing

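The 1 call of the CBD arm became 3 with upper-quartile scaling, 64 with no filter on low counts, 38 with DESeq2, 87 with limma voom, 13 in the fit on the compared groups alone, 39 with a surrogate variable and 21 at an adjusted p under 0.1, and it ran from 0 to 13 when single libraries were left out. The members of the 49 lists that were called, 1 in all, became 21 with no filter, 8 with DESeq2, 14 with voom, 5 in the fit on the compared groups alone and 10 with the surrogate variable, and 0 to 4 without single libraries. For the vehicle arm (188 calls) the same settings, chosen after seeing the data, gave 359 with no filter, 320 with DESeq2, 293 with voom, and 125 to 266 without single libraries. For the control arm (99 calls) they gave 357 with no filter, 269 with DESeq2, 694 with voom, 57 in the fit on the compared groups alone, 20 with the olfactory bulb score, 392 with the surrogate variable, and 20 to 132 without single libraries.

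The 9 differences between the CBD and vehicle responses became 37 with no filter, 24 with DESeq2, 42 with voom, 16 with the olfactory bulb score, 20 with the surrogate variable, and 2 to 17 without single libraries. The 1 difference from the control arm became 29 with no filter, 0 with the strict filter or the olfactory bulb score, 10 with DESeq2, 14 with voom, 5 with the surrogate variable, and 0 to 4 without single libraries. Under the strict filter the pseudogene is not among the genes tested. The cause of the other shifts was not tested.

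The replicate numbers do not pair the libraries: the 4 same-numbered pairs of the CBD arm correlated at -0.153 to 0.082 in their deviations from the group means over 14348 genes, none above 0.1, and 1 was closest to its own number. With the replicate block the CBD arm had 9 calls, list members 5, the control arm 292, the difference from the vehicle arm 16 and that from the control arm 2.

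Of the single-gene values in the CBD arm, 1743 kept their direction and side of the threshold, 130 passed it, 4 lost it and 34 turned sign. The sign turned for Fcgr3 under voom (0.0319). It turned for Ifitm3 under the strict filter (-0.00386), DESeq2 (-0.0014), the olfactory bulb score (-0.014) and the surrogate variable (-0.051). It turned for Pglyrp1 under the strict filter (-0.00296), voom (-0.028), the replicate block (-0.018), the olfactory bulb score (-0.00438) and the surrogate variable (-0.0041), and for Saa3 under voom (-0.13) and the olfactory bulb score (-0.037). Without single libraries the log2 values ran from -0.0523 to 0.0365 for Rbm3, -0.0941 to 0.0501 for Fcgr3, -0.12 to 0.18 for Ifitm3, -0.14 to 0.16 for Pglyrp1, -0.85 to 0.38 for Lcn2, -1.55 to 1.116 for Saa3, -0.0596 to 0.172 for P2ry12 and -0.107 to 0.026 for Cldn5. Of 475 list medians under other settings 465 moved by less than the spread of the list's score between replicates and 10 by more. Genes within a few counts of the floor of 3, such as Selp, Sele and Saa3 in the CBD arm, could not show a difference at this depth unless it was large.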
